A study of Mus musculus with 16 samples.

Results

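This account covers 40 genes of rod phototransduction and the rod outer segment in the nm3342 mouse. The members are all non-control probes whose RefSeq accession belongs to a listed rod gene, which gave 57 probes for the 40 genes. The array named 20660 genes in all, and 19022 of them were tested. All 57 member probes were well above background on all 16 arrays, so none of the 40 genes was lost to the filter on dim probes.

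RNA was measured on 16 single-colour Agilent arrays, with 4 labelled samples in each of 4 groups. The groups were nm3342 mutants at 1 month, wild types at 1 month, nm3342 mutants at 1 year and wild types at 1 year. Every animal was on the C57Bl/6J background and was labelled male. Retina and retinal pigment epithelium (RPE) were extracted together, and the series title presents nm3342 as a possible model of serous retinal detachment. In that condition fluid separates the photoreceptors from the RPE. The labels name neither the mutated gene nor any litter or batch, so the genotype labels had no targeted gene to check them. The labels count 4 mice per time point, and p-values measure the spread between these samples.

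Rods detect dim light in a stack of membrane discs, the outer segment. There light-activated visual pigment switches on the G protein transducin, transducin activates the phosphodiesterase PDE6, and the fall in cGMP closes cation channels. Recovery depends on arrestin, a receptor kinase, a GTPase-accelerating complex and calcium-regulated guanylate cyclases, and the transcription factors CRX, NRL and NR2E3 maintain the rod programme. Outer segment discs are renewed throughout life and their shed tips are taken up by the RPE, so rods and RPE normally work in contact.

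A level below is the log2 processed signal of a gene's brightest probe minus the 75th percentile of that array, so 0 is the 75th percentile. Levels of different probes are not compared with each other. The array means of the 40 members ran from 4.40 to 4.55 in the 1-year mutants, from 4.69 to 4.85 in the 1-year wild types, from 4.65 to 4.92 in the 1-month mutants and from 4.73 to 4.84 in the 1-month wild types. Calls rest on a limma fit of the 4 groups over all 19022 genes, at a p under 0.05 after Benjamini-Hochberg adjustment. Markers of the labelled tissue were present: the mean levels of the rod members ran from -0.07 to 8.56, the Müller glia gene Glul had levels of 5.50 to 5.95 and the RPE gene Rpe65 had levels of 2.95 to 4.00.

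Between 82.1% and 89.6% of the spots of an array were well above background. Sex-linked genes went against the male label on 3 arrays: replicates 2 and 3 of the 1-month mutants, and replicate 1 of the 1-year mutants. There Xist had levels of -0.14, -0.38 and -0.03 and Ddx3y had levels of -8.13, -8.41 and -8.47. On the other 13 arrays Xist ran from -8.61 to -5.68 and Ddx3y from 0.69 to 1.19. Mutant 1-month replicate 4 stood apart in several ways. Its mean over 3 red-cell genes was 2.88, against -1.1 to -0.33 on the other mutant 1-month arrays and -2.39 to -1.03 on the wild-type ones. Its mean over 8 lens genes was 5.91, against 1.17 to 3.97 and 4.32 to 4.93. Its mean over the rod members was 4.65, against 4.83 to 4.92 on the other mutant 1-month arrays. Its 75th percentile, 603, was the lowest of the 16 arrays. The 16 arrays lay on 2 slides with 2 arrays of every group on each. Rows of the slides were not balanced: 6 of the 8 mutant arrays lay in row 2 and 6 of the 8 wild-type arrays in row 1.

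At 1 year 39 of the 40 rod genes had a negative log2 change in mutants against wild types. The changes ran from -0.61 for Rp1l1 to 0.12 for Sag, with a median of -0.30 (19% lower), while the median over all genes was -0.01. Only 3 members passed the test, all lower: Gnat1, Rp1l1 and Cdhr1. That is 7.5% of the members, against 0.247% of all genes called lower. The 4 mutant arrays all lay below the 4 wild-type arrays for 25 members (62.5%), against 3.42% of all genes. The standard errors of the 40 changes ran from 0.06 to 0.19. At an unadjusted p under 0.05, 32 members were lower, against 992 of all 19022 genes.

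Between 37 and 39 members stayed negative in every one of the 24 alternative settings tried, and the median ran from -0.34 to -0.23. On slide 1 alone the median was -0.34 and on slide 2 alone it was -0.23, with 2 arrays a group and no member called on either. Over all genes the slides alone gave 10 and 13 calls, against 165 in the main fit. Without mutant 1-year replicate 1, whose sex-linked genes went against the label, the median was -0.30, no member was called and 39 were negative. Over all genes that fit called 96. Leaving out 1 array ended all 3 calls in 6 of 8 fits. With array row as a covariate all 3 calls were lost, at limma adjusted p of 0.0689 for Gnat1, 0.0813 for Rp1l1 and 0.108 for Cdhr1, and the median was -0.28. In bulk tissue, fewer rods and less RNA per rod cannot be told apart.

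**Figure D1:**
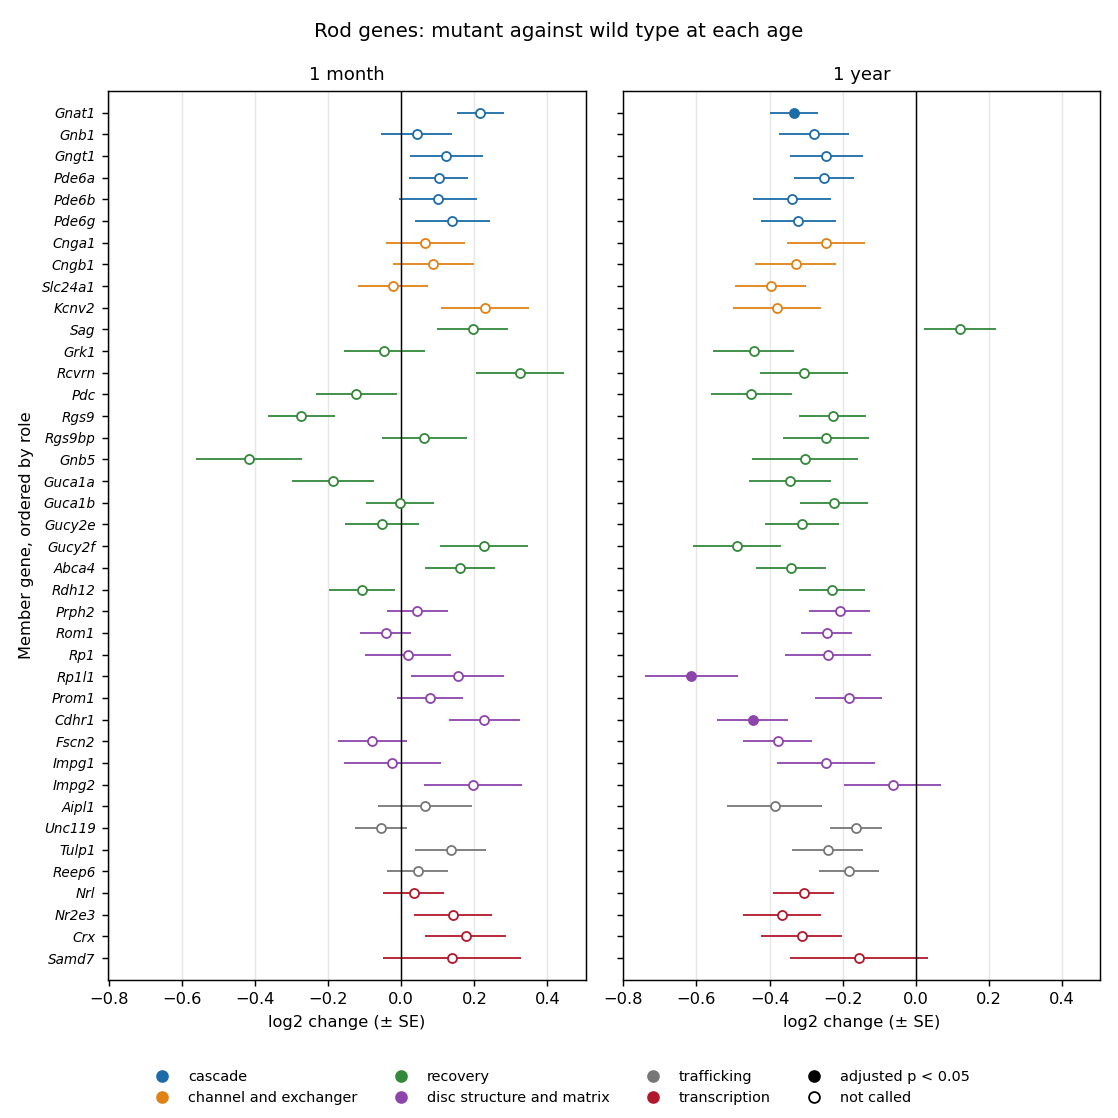
Each point is the log2 change of 1 rod gene in mutants against wild types, with its standard error, at 1 month (left) and at 1 year (right); colours mark roles and filled points the called genes. At 1 month 27 genes lie right of 0 and 13 left of it, and at 1 year all genes but Sag lie left of 0.

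The transducin and phosphodiesterase genes of the activation cascade lay close together at 1 year. All 6 had negative changes, from -0.34 to -0.25, and for all 6 the mutant arrays lay wholly below the wild-type arrays. Gnat1, the rod transducin alpha subunit, had levels of 7.62, 7.56, 7.62 and 7.56 on the mutant 1-year arrays and 7.93, 7.93, 7.96 and 7.88 on the wild-type 1-year arrays. The mutant arrays spanned a narrow range below the lowest wild-type array. Gnat1 fell by 0.33 ± 0.06 on the log2 scale in mutants (20.6% lower, SE, 4 arrays a group, limma adjusted p = 0.0252). Its call did not hold on the authors' deposited matrix (-0.28, limma adjusted p = 0.148) or after normexp correction and quantile normalization (-0.25, limma adjusted p = 0.223), and leaving out any array but wild-type 1-year replicate 4 gave adjusted p between 0.0637 and 0.0909.

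The other 5 cascade genes did not pass the test at 1 year. Gnb1 and Gngt1, the transducin beta and gamma subunits, had log2 changes of -0.28 and -0.25. Pde6a and Pde6b, the catalytic PDE6 subunits, had log2 changes of -0.25 and -0.34, and Pde6g, the inhibitory subunit, had -0.32. Their adjusted p ran from 0.185 to 0.344.

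Among channel and exchanger genes, all 4 had negative changes at 1 year, with a median of -0.35, and none was called. Cnga1, the alpha subunit of the cGMP-gated channel, had levels of 5.89, 5.78, 5.80 and 5.66 in mutants and 5.83, 6.15, 6.10 and 6.04 in wild types. Its groups overlapped at 1 array, and the log2 change was -0.25 ± 0.11 (SE, limma adjusted p = 0.393). Slc24a1, the rod sodium-calcium-potassium exchanger, had levels of 2.88, 2.64, 2.87 and 2.58 in mutants and 2.98, 3.27, 3.19 and 3.12 in wild types. Here the groups did not overlap. The log2 change of Slc24a1 was -0.40 ± 0.10 (24.1% lower, SE, limma adjusted p = 0.0748), and it passed the test on the authors' deposited matrix. Cngb1, the channel's beta subunit, and Kcnv2, a photoreceptor potassium channel subunit, had log2 changes of -0.33 and -0.38.

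The 13 recovery genes held both the one positive change and several of the most negative ones. Sag, the rod arrestin, had levels of 6.52, 6.52, 6.55 and 6.18 on the mutant 1-year arrays and 6.22, 6.38, 6.30 and 6.38 on the wild-type ones. Of the mutant arrays, 3 lay above every wild-type array and replicate 4 lay below them all. The log2 change of Sag was 0.12 ± 0.10 (SE, limma adjusted p = 0.716), and it stayed positive, from 0.05 to 0.21, in all 24 alternatives. Without mutant 1-year replicate 4 it was 0.21.

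Pdc encodes phosducin, which binds transducin's beta-gamma dimer. Its levels were 7.11, 7.04, 7.04 and 6.85 in 1-year mutants and 7.27, 7.54, 7.59 and 7.44 in 1-year wild types, without overlap. The log2 change was -0.45 ± 0.11 (26.8% lower, SE, limma adjusted p = 0.0787). Gucy2f, a photoreceptor guanylate cyclase that restores cGMP, had levels of 0.39, 0.44, 0.27 and 0.24 in mutants and 0.72, 1.07, 0.88 and 0.62 in wild types. These also did not overlap, and the log2 change of Gucy2f was -0.49 ± 0.12 (28.8% lower, SE, limma adjusted p = 0.0788).

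Grk1, the kinase that phosphorylates activated visual pigment, had levels of 5.41, 5.30, 5.50 and 5.45 in 1-year mutants and 6.00, 6.01, 5.93 and 5.49 in 1-year wild types. Its groups met at 1 array on each side, since wild-type replicate 4 lay at the level of the highest mutant array. The log2 change was -0.44 ± 0.11 (26.5% lower, SE, limma adjusted p = 0.0824). Without wild-type 1-year replicate 4 it passed the test, with a change of -0.57 and a limma adjusted p of 0.00666. The other 9 recovery genes had log2 changes from -0.34 to -0.22. They are Rcvrn, a calcium sensor that restrains Grk1, the GTPase-accelerating complex of Rgs9, Rgs9bp and Gnb5, the cyclase activators Guca1a and Guca1b, the cyclase Gucy2e, and the retinoid handlers Abca4 and Rdh12.

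**Figure D2:**
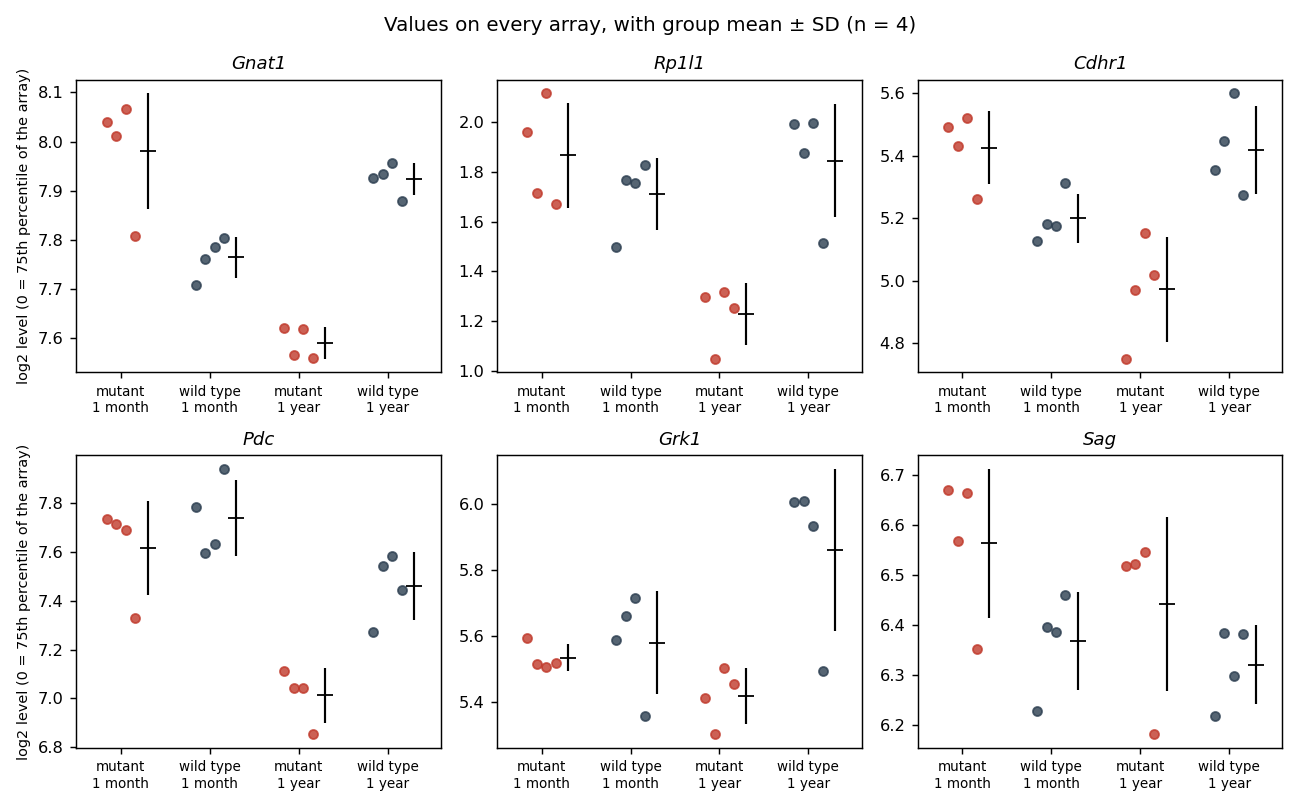
Points are the log2 levels on single arrays (0 is the 75th percentile of the array) for Gnat1, Rp1l1, Cdhr1, Pdc, Grk1 and Sag in the 4 groups, with the group mean and SD of 4 arrays beside them. In Gnat1, Rp1l1 and Pdc the 1-year mutant arrays lie below those of all other groups, and in Cdhr1 below those of the 1-year wild types; in Sag 3 of them lie above the 1-year wild types.

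Genes of disc structure and of the matrix around the outer segment gave 2 of the 3 calls. Rp1l1 encodes a microtubule-associated protein of the outer segment axoneme. Its levels were 1.30, 1.05, 1.32 and 1.25 in 1-year mutants and 1.99, 1.88, 2.0 and 1.51 in 1-year wild types. The mutant arrays all lay below the lowest wild-type array, replicate 4. Rp1l1 fell by 0.61 ± 0.13 on the log2 scale (34.7% lower, SE, limma adjusted p = 0.0371). It also passed on the authors' deposited matrix (-0.62, limma adjusted p = 0.0132), and lost the call in 7 of 8 fits without 1 array, where adjusted p reached 0.126.

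Cdhr1, a photoreceptor cadherin at the base of the outer segment where new discs form, had levels of 4.75, 4.97, 5.15 and 5.02 in 1-year mutants and 5.36, 5.45, 5.60 and 5.27 in 1-year wild types. The groups did not overlap, though the highest mutant array lay close to the lowest wild-type array. Cdhr1 fell by 0.45 ± 0.10 on the log2 scale (26.6% lower, SE, limma adjusted p = 0.0481). On the authors' deposited matrix the limma adjusted p was 0.0353, and with 1 array left out the call was lost in 6 of 8 fits, with adjusted p up to 0.161.

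Prph2, the tetraspanin of disc rims, had levels of 7.95, 7.74, 7.76 and 7.68 in 1-year mutants and 7.95, 8.01, 8.06 and 7.94 in 1-year wild types. Mutant replicate 1 lay within the wild-type range, and the log2 change was -0.21 ± 0.08 (SE, limma adjusted p = 0.333). Fscn2, a photoreceptor actin-bundling protein, had levels of 1.28, 1.23, 1.25 and 0.86 in mutants and 1.55, 1.51, 1.53 and 1.54 in wild types. The wild-type arrays were tightly grouped above every mutant array, and the log2 change was -0.38 ± 0.09 (23.1% lower, SE, limma adjusted p = 0.0808). The remaining 5 genes of this class, Rom1, Rp1, Prom1, Impg1 and Impg2, had log2 changes from -0.25 to -0.06, and Impg2, an interphotoreceptor matrix proteoglycan, was the nearest to 0.

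The trafficking genes did not separate the groups at 1 year: all 4 changes were negative, with a median of -0.21, but each of the 4 overlapped. Aipl1, the co-chaperone that PDE6 needs to fold, had levels of 1.45, 1.06, 1.16 and 0.76 in mutants and 1.63, 1.48, 1.31 and 1.55 in wild types. Mutant replicate 1 reached into the wild-type range. The log2 change was -0.39 ± 0.13 (SE, limma adjusted p = 0.226). Unc119, a lipid-binding carrier of transducin, Tulp1, which is needed for transport to the outer segment, and Reep6, a membrane-shaping protein of rods, had log2 changes from -0.24 to -0.16.

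Transcription factors showed changes of the same size. Nrl, the leucine zipper factor that sets rod fate, had levels of 7.57, 7.40, 7.55 and 7.37 in 1-year mutants and 7.81, 7.83, 7.83 and 7.65 in 1-year wild types. The groups did not overlap. The log2 change of Nrl was -0.31 ± 0.08 (SE, limma adjusted p = 0.114). Nr2e3, the nuclear receptor that acts with it, and Crx, the photoreceptor homeobox factor, had log2 changes of -0.36 and -0.31 without overlap, and Samd7, a rod repressor of other cell programmes, had -0.16 with the widest standard error of the 40 (0.19).

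CRX and NRL bind near the starts of many rod genes, so the RefSeq promoter windows of GRCm38.p6 (250 bases before to 50 after the start) were read for their core letters. A window was present for 30 of the 40 members. TAATCC, the core of the CRX site, was searched on both strands and was present in 13 of the 30 (43.3%), against 8.14% of 27025 genes. TGCTGA, the core of the NRL site, also searched on both strands, was present in 7 of the 30 (23.3%), against 21.7% of all genes. A match is a description of the sequence only. The 250 bases before the start are shown for 3 members whose 1-year values differed: Gucy2f, with a large negative change, Aipl1, whose groups overlapped, and Sag, with the only positive change. Capitals mark the matches, with GGATTA being TAATCC read on the opposite strand. Only windows that hold the CRX core were taken for display, so its presence in all 3 was set by that choice. The windows of Aipl1 and Sag hold the NRL core too, with no overlap between the matches.
Gucy2f (chrX:142196937-142197186, minus strand): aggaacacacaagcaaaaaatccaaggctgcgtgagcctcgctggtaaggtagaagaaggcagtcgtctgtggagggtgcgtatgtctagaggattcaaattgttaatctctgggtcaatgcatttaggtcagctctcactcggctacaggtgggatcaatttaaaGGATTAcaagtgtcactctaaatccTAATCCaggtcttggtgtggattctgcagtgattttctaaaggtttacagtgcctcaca
Aipl1 (chr11:72037510-72037759, minus strand): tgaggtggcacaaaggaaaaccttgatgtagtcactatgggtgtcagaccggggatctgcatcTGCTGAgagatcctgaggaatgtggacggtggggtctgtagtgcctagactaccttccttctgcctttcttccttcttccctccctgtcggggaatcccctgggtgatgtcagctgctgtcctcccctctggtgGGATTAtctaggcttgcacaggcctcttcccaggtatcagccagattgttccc
Sag (chr1:87803430-87803679, plus strand): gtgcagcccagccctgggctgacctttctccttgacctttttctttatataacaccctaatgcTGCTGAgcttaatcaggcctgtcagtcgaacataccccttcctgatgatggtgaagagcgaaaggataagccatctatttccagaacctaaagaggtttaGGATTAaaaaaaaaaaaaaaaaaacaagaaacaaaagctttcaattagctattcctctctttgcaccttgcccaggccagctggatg

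Further probes, 17 in all, were present for 14 member genes, and these were compared at 1 year as a check within the array. All 17 had negative changes, from -0.51 to -0.11 with a median of -0.32. Fitted probe by probe, 56 of the 57 member probes were negative and 0 passed the limma test, against 0.4% of all probes called, while 42 had an unadjusted p under 0.05. The Gnat1 probe then had a limma adjusted p of 0.0763 over 49230 probes.

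At 1 month the rod genes did not share a direction. No member passed the test (0 of 40, against 2.67% of all genes called). An unadjusted p under 0.05 was found for 5 members, 3 higher and 2 lower in mutants. That share was no larger than the one over all genes (2885 of 19022). Changes were positive for 27 members and negative for 13, with a median of 0.07 against 0.02 over all genes. They ran from -0.42 for Gnb5 to 0.33 for Rcvrn. All 6 cascade genes had positive changes, from 0.04 to 0.22, while 8 of the 13 recovery genes had negative ones.

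Gnat1 was the only member whose mutant arrays all lay above the wild-type arrays at 1 month, against 5.81% of all genes. Its levels were 8.04, 8.01, 8.07 and 7.81 in mutants and 7.71, 7.76, 7.79 and 7.80 in wild types. The gap was narrowed by mutant replicate 4, which nearly met the highest wild-type array, and the log2 change was 0.22 ± 0.06 (SE, limma adjusted p = 0.109). Without that replicate, the one with high red-cell and lens genes, Gnat1 was higher by 0.27 ± 0.05 (SE, limma adjusted p = 0.0162) and Rcvrn by 0.44 ± 0.11 (SE, limma adjusted p = 0.0355). Over all genes the calls rose from 508 to 924 without it. The part of blood, lens or any other trait of that array in these values was not tested.

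Gnb5, the beta subunit of the GTPase-accelerating complex, was the only member with all mutant arrays below the wild-type ones at 1 month, against 2.69% of all genes. It had levels of 1.86, 1.88, 1.94 and 1.47 in mutants and 2.07, 2.15, 1.98 and 2.60 in wild types. The farthest arrays of both groups were replicate 4, and the log2 change was -0.42 ± 0.14 (SE, limma adjusted p = 0.171). Its partner Rgs9 had a log2 change of -0.27 ± 0.09 (SE, limma adjusted p = 0.162), which passed without wild-type 1-month replicate 4 (-0.36, limma adjusted p = 0.0365). That value rests on 1 of 3 probes, and the other 2 Rgs9 probes had changes of 0.16 and 0.17 at 1 month, with neither called.

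The genotype effect differed between the ages for 1 member. The difference of the effects, 1 year minus 1 month, was -0.55 ± 0.09 for Gnat1 (SE, limma adjusted p = 0.0180). That was the only call among the 40, so 2.5% of the members were called lower, against 0.263% of all genes. The differences were negative for 38 members, with a median of -0.32, and the largest in size was -0.77 ± 0.18 for Rp1l1 (SE, limma adjusted p = 0.0841). Cdhr1 had -0.67 ± 0.14 (SE, limma adjusted p = 0.0510). The Gnat1 difference was -0.53 on slide 1 and -0.57 on slide 2. It was -0.50 without the 3 arrays whose sex-linked genes went against the label (limma adjusted p = 0.184) and -0.49 on the authors' deposited matrix (limma adjusted p = 0.0975), so the call did not hold there. With the array mean of RPE and melanin genes as a covariate, the median difference of the members was -0.32. No member was called then, and the smallest limma adjusted p was 0.342. Calls over all genes moved too. The difference gave 77 in the main fit, 89 on the deposited matrix, 12 without the 3 arrays against the sex label and 1 with the covariate.

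Some rod genes of every role fell with age in the mutants. Of the 40 members, 17 were lower at 1 year than at 1 month in mutants (42.5%, against 2.92% of all genes called lower) and 0 were higher (3.76% of all genes). In wild types 0 were called, against 12.4% of all genes called in either direction. There 11 members had an unadjusted p under 0.05 (6 higher and 5 lower), a share close to that of all genes (5023 of 19022). The 1-year arrays lay wholly below the 1-month arrays for 19 members in mutants, against 6.4% of all genes. In wild types they lay wholly below for 4, against 9.73% of all genes, and wholly above for 5, against 9.13%. The median change of the members with age was -0.31 in mutants and -0.02 in wild types, while the medians over all genes were -0.05 in mutants and -0.03 in wild types. For 38 of the 40 members the 1-year mutants had the lowest mean of the 4 groups. The mutant comparison over age and the 1-year comparison of genotypes share the 4 mutant 1-year arrays, so they are not independent, and a call in mutants without one in wild types is not a test of their difference, which passed for Gnat1 alone.

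**Figure D3:**
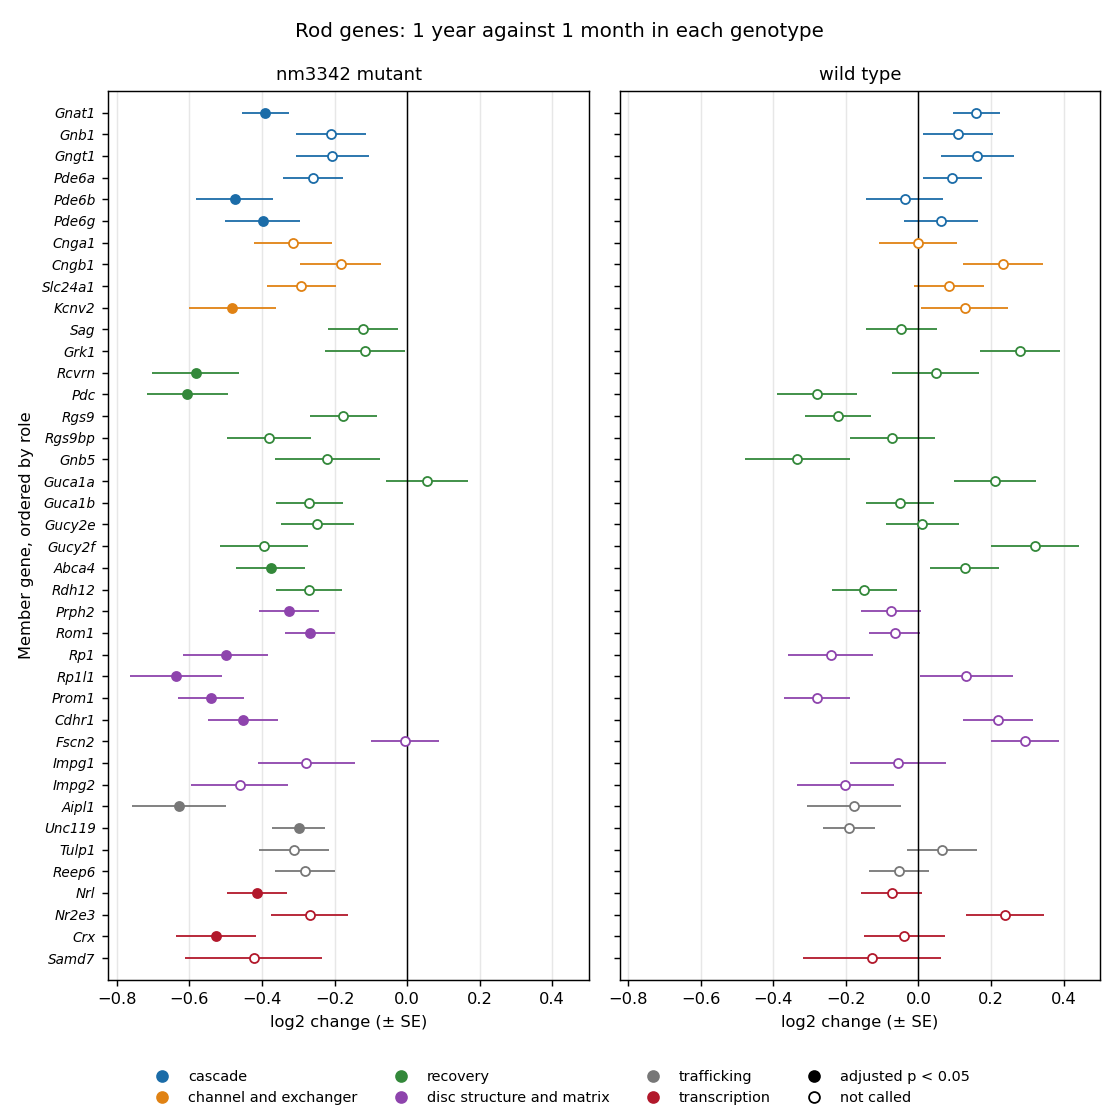
Each point is the log2 change of 1 rod gene at 1 year against 1 month, with its standard error, in nm3342 mutants (left) and wild types (right); colours mark roles and filled points the called genes. In mutants 17 genes are called, all left of 0, and in wild types 0 are called and the points lie on both sides of 0.

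The 17 genes that fell with age in mutants came from every role. Of the 6 cascade genes, Gnat1, Pde6b and Pde6g fell. Gnat1 had levels of 7.62, 7.56, 7.62 and 7.56 at 1 year and 8.04, 8.01, 8.07 and 7.81 at 1 month in mutants, without overlap, and fell by 0.39 ± 0.06 on the log2 scale (SE, limma adjusted p = 0.00196). Its call with age was lost on the authors' deposited matrix (-0.23, limma adjusted p = 0.125). In wild types the same gene had a change of 0.16 ± 0.06 (SE, limma adjusted p = 0.132).

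Of the 4 channel genes Kcnv2 fell, and of the 13 recovery genes Rcvrn, Pdc and Abca4. Pdc had levels of 7.11, 7.04, 7.04 and 6.85 at 1 year and 7.73, 7.72, 7.69 and 7.33 at 1 month in mutants. All 1-year arrays lay lower, and Pdc fell by 0.61 ± 0.11 on the log2 scale (SE, limma adjusted p = 0.00393). In wild types Pdc had a change of -0.28 ± 0.11 (SE, limma adjusted p = 0.123), and the difference of the 2 age changes equals that of the genotype effects, which was -0.33 ± 0.16 for Pdc (SE, limma adjusted p = 0.479).

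Disc structure gave the highest share, 6 of 9: Prph2, Rom1, Rp1, Rp1l1, Prom1 and Cdhr1. Prom1, a membrane protein of forming discs, had levels of 5.71, 5.69, 5.79 and 5.57 at 1 year and 6.26, 6.29, 6.30 and 6.08 at 1 month in mutants. The groups did not overlap, and Prom1 fell by 0.54 ± 0.09 on the log2 scale (SE, limma adjusted p = 0.00222). In wild types its levels were 5.78, 5.98, 6.06 and 5.68 at 1 year and 6.06, 6.10, 6.24 and 6.21 at 1 month. There too every 1-year array lay below, by a change of -0.28 ± 0.09 (SE, limma adjusted p = 0.0607), and Prom1 passed on the authors' deposited matrix.

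Of the trafficking genes Aipl1 and Unc119 fell with age in mutants, and of the transcription factors Nrl and Crx. Aipl1 fell by 0.63 ± 0.13 (SE, limma adjusted p = 0.00885), Nrl by 0.41 ± 0.08 (SE, limma adjusted p = 0.00760) and Crx by 0.53 ± 0.11 (SE, limma adjusted p = 0.00972), all on the log2 scale. Unc119 had levels of 7.92, 8.05, 8.12 and 8.05 at 1 year and 8.18, 8.17, 8.18 and 8.38 at 1 month in wild types, and its change there was -0.19 ± 0.07 (SE, limma adjusted p = 0.101). In mutants Unc119 fell by 0.30 ± 0.07 (SE, limma adjusted p = 0.0211).

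Some members did not decline in the mutants with age. Fscn2 had levels of 1.28, 1.23, 1.25 and 0.86 at 1 year and 1.28, 1.04, 1.14 and 1.19 at 1 month in mutants, with overlapping groups and a change of -0.01 ± 0.09 (SE, limma adjusted p = 0.982). In wild types Fscn2 had 1.55, 1.51, 1.53 and 1.54 at 1 year and 1.41, 1.21, 1.19 and 1.15 at 1 month. Every wild-type 1-year array lay above, with a change of 0.29 ± 0.09 (SE, limma adjusted p = 0.0562). Guca1a was the only member with a positive change in mutants, 0.05 ± 0.11 (SE), and it did not pass the test.

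Of the 17 calls in mutants, 9 held whichever array of the compared groups was left out: Gnat1, Rcvrn, Pdc, Rp1l1, Prom1, Cdhr1, Aipl1, Nrl and Crx. The count was 26 without mutant 1-month replicate 4, and 10 or 11 without mutant 1-month replicates 1, 2 or 3 or mutant 1-year replicates 2 or 4. Over all genes 1271 were called in the main fit and 1919 without mutant 1-month replicate 4. Without the 3 arrays whose sex-linked genes went against the label only Aipl1 was called, and the median was -0.28. Over all genes that fit called 273. Slide 1 alone gave a median of -0.25 and slide 2 alone -0.39, with no member called on either. Over all genes the slides alone gave 37 and 162 calls.

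The probes of Rgs9 differed in direction with age. Its brightest probe had a change of -0.22 with age in wild types and -0.18 in mutants. Its other 2 probes, which the array design ties to a second RefSeq transcript, both rose with age. In wild types the second probe had levels of 0.16, -0.04, 0.50 and 0.09 at 1 year and -0.90, -0.76, -1.01 and -0.99 at 1 month. All 1-year arrays lay above all 1-month arrays by a change of 1.1, with a limma adjusted p of 0.000110 over all probes. In mutants the same probe had levels of 0.10, -0.42, -0.08 and -0.16 at 1 year and -0.79, -0.83, -0.84 and -0.59 at 1 month, with a change of 0.62 (limma adjusted p = 0.0165). The last probe rose by 1.04 in wild types (limma adjusted p = 0.000243) and by 0.60 in mutants (limma adjusted p = 0.0266). These were the only 2 of the 57 member probes called in wild types with age, against 5.69% of all probes. With age in mutants 18 of the 57 were called, against 2.78% of all probes. At 1 year in mutants against wild types all 3 Rgs9 probes were negative, at -0.23, -0.32 and -0.27. With the mean of the probes in place of the brightest, Rgs9 was called higher with age in both genotypes, and without wild-type 1-month replicate 4 its brightest probe was called lower with age in wild types. Probes of Grk1, Guca1b, Gucy2e, Prph2 and Reep6 also differed in sign at 1 month or with age in wild types, with none of their probes called in those comparisons.

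**Figure D4:**
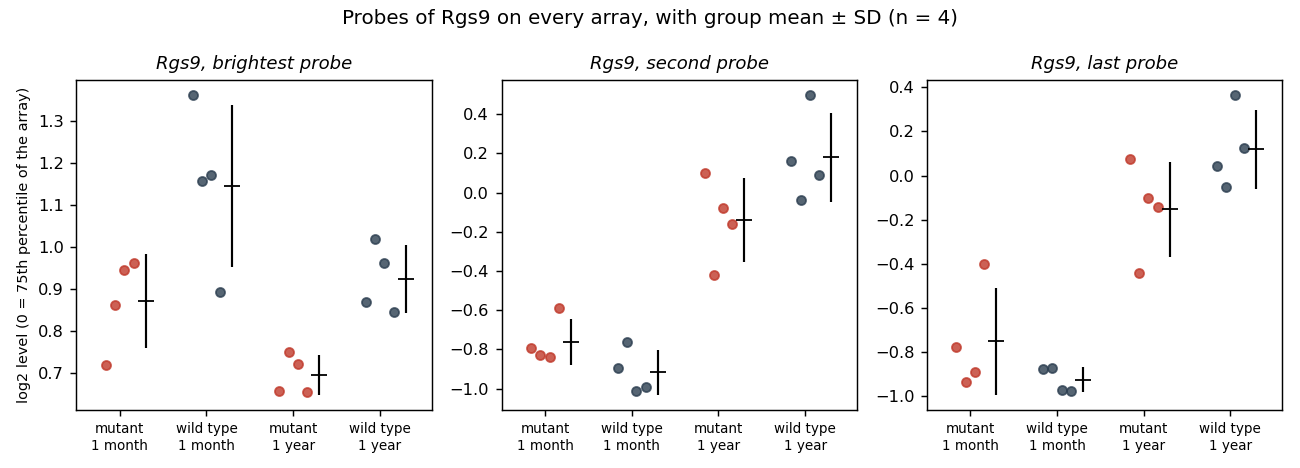
Points are log2 levels on single arrays (0 is the 75th percentile of the array) for the 3 probes of Rgs9, with the group mean and SD of 4 arrays beside them. In the second probe the 1-year arrays of both genotypes lie above their 1-month arrays. In the last probe this holds in wild types only, since mutant 1-year replicate 2 (-0.44) lies below mutant 1-month replicate 4 (-0.40). In the brightest probe it holds in neither genotype.

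Lists for other cell types and for gliosis were read beside the rod genes, since they share the RNA of the sample. At 1 year 19 of 22 further photoreceptor genes had negative changes, with a median of -0.19 and 0 calls by limma. Of these 22 genes, 7 were lower at an unadjusted p under 0.05, against 992 of all 19022 genes. Of the cone genes 11 of 13 had negative changes, with a median of -0.15. The cone list had 1 call, Gnb3, a transducin beta subunit shared by cones and bipolar cells, which rose by 0.73 (limma adjusted p = 0.0205), against 0.62% of all genes called higher. The medians were 0.34 over 9 bipolar genes and 0.20 over 10 Müller glia genes. All 12 genes of the gliosis list had positive changes and 6 were called higher, against the same 0.62% of all genes. The lists were chosen with earlier results of these data known, so these shares describe the lists and are no test of them. Among the 6 were Edn2 (4.06), Lcn2 (2.68) and C4b (1.26). Which cells made these RNAs cannot be told in bulk tissue. The array means of the gliosis list at 1 year ran from 1.00 to 1.41 in mutants and from -0.24 to 0.11 in wild types.

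With age in mutants, the lists for other cell types and for gliosis also had lower or higher levels. All 22 further photoreceptor genes had negative changes, with a median of -0.32, and 9 were called lower, against 2.92% of all genes. The cone median was also -0.32, with 2 of 13 genes called lower. All 10 amacrine and ganglion cell genes had negative changes, with a median of -0.31, and limma called none. Of these 10 genes, 5 were lower at an unadjusted p under 0.05, against 2083 of all 19022 genes. The gliosis median was 1.49, with 9 of 12 genes called higher, against 3.76% of all genes. The gliosis array means in mutants ran from 1.00 to 1.41 at 1 year and from -0.57 to -0.37 at 1 month. With age in wild types, 18 of the 22 further photoreceptor genes were negative, with a median of -0.06 and 3 called lower. Of all 19022 genes, 969 were called lower in that comparison. Of the 13 cone genes 11 were negative, with a median of -0.16 and 1 called lower, against the same 969 of 19022. Of the 10 amacrine and ganglion cell genes 9 were negative, with a median of -0.21 and 2 called lower, against the same 969. The gliosis median there was 0.38, with 5 genes called higher and 1 lower, against 12.4% of all genes called in either direction. The part of these lists in the rod changes with age was not tested.

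RPE and pigment genes moved less evenly at 1 year. The median was 0.06 over 9 RPE genes and -0.51 over 8 melanin genes, with 0 limma calls in either. At an unadjusted p under 0.05 there were 4 RPE and 5 melanin genes, against 2152 of all 19022 genes. The melanin means ran from 1.96 to 2.47 in mutants and from 2.47 to 2.98 in wild types. With the array mean of both lists as a covariate, the rod median at 1 year was -0.28 with 39 members negative and 0 called. Over all genes 118 were called with that covariate, against 165 in the main fit. At 1 month the mutant medians were 0.33 over RPE and 0.67 over melanin genes. There 4 and 5 genes were called higher, against 2.67% of all genes called in either direction. The differences, 1 year minus 1 month, had medians of -0.50 and -0.90. Of these, 0 RPE and 2 melanin genes were called lower, against 0.263% of all genes. Lens genes, a sign of lens tissue in the dissection, had means from -0.95 to 5.22 in 1-year mutants and from -2.97 to 1.60 in 1-year wild types. With age the lens median was -4.92 in wild types, with 4 of 8 genes called lower, against 12.4% of all genes called in either direction. In mutants it was -1.48, with 0 called. The part of gliosis, pigment cell and lens RNA in the rod values was not tested.

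**Figure D5:**
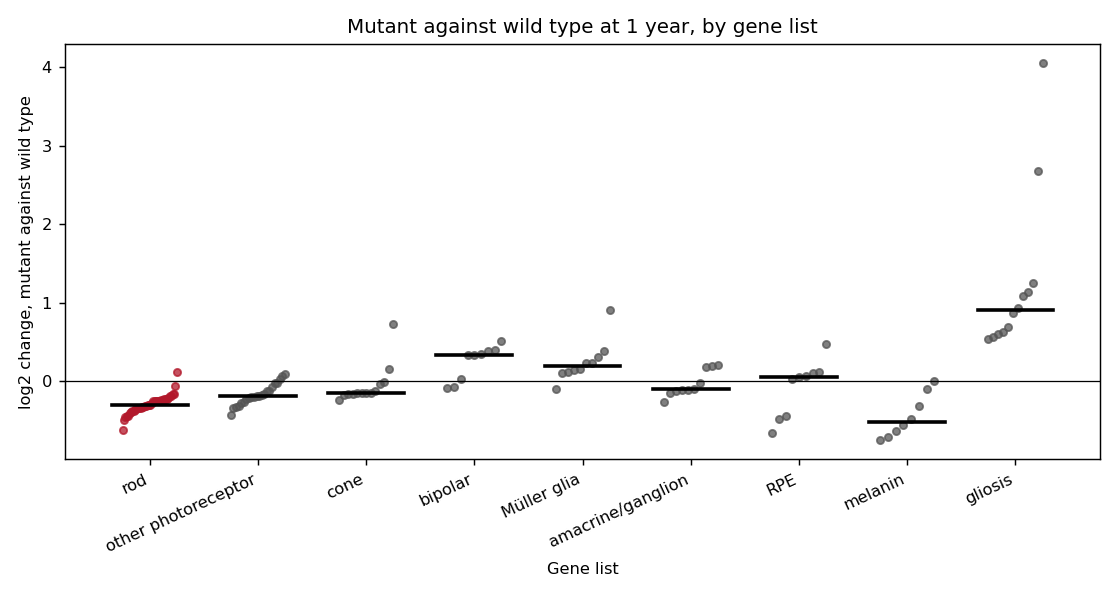
Each point is the log2 change of 1 gene in mutants against wild types at 1 year, grouped by gene list, with a bar at the list's median. The rod points lie close together around a median of -0.30, the bipolar median is 0.34 and the gliosis list reaches 4.06 for Edn2.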

How the data were processed

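Total RNA of retina with RPE was measured on 16 arrays, 4 per group. Per the file headers, the deposited scanner files hold the fluorescence intensity of each spot after background subtraction and spatial detrending by Agilent Feature Extraction 11.0.1.1. A deposited matrix of log2 values appears, from its values, to be quantile normalized; its software is not given in the sources used here. It was used as an alternative only, and its lowest correlation with the scanner values of an array was 0.9989.

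Outlier spots were removed. Levels are log2 of the processed intensity less the 75th percentile of that array, averaged over replicate spots, for 55681 probes. Probes were named through RefSeq accessions (27235 named, 28446 not; GRCm38.p6, names only). Probes well above background on at least 4 arrays were kept, and the brightest probe stood for a gene. limma 3.58.1 (R 4.3.3, statmod 1.5.0, data.table version 1.17.8) fitted 4 group means over 19022 genes, with 5 contrasts and two-sided Benjamini-Hochberg adjustment. The fit was tested on simulated data. Errors beside changes are standard errors.

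The alternatives were other normalizations (normexp with an offset of 50, the 50th percentile, the deposited matrix), filters, probe rules, slide, row, sex-linked pattern, pigment mean, replicate block and single arrays left out. The members and lists were chosen with earlier results of these data known. Array values are given for the first member of each role, for every called member of the genotype contrasts, for the 8 members with the smallest adjusted p at 1 year, and for the 3 smallest with age in each genotype; Gnb5 and the second Rgs9 probe were singled out after their values were seen. Same-numbered replicates had deviations that correlated between -0.54 and 0.17, so the numbers were not taken to pair samples. The number of arrays limits the precision.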

Additional observations from a re-analysis of the deposited data

Results flagged for a closer look

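In 7 of 60 groups of 4 arrays examined for the named members, 1 array stood far from the other 3; chance alone gives about 1 group in 20. On mutant 1-year replicate 4, Sag had a level of 6.18 against 6.52 to 6.55 on the other 3, and Fscn2 had 0.86 against 1.23 to 1.28. On wild-type 1-year replicate 4, Grk1 had 5.49 against 5.93 to 6.01 and Nrl had 7.65 against 7.81 to 7.83. On mutant 1-month replicate 4, the array with high red-cell and lens genes, Pdc had 7.33 against 7.69 to 7.73. On mutant 1-month replicate 1, Grk1 had 5.59 against 5.51 to 5.52, and on wild-type 1-month replicate 4, Unc119 had 8.38 against 8.17 to 8.18. The genotype effect on Gnat1 differed between the ages, at -0.55 on the log2 scale for 1 year minus 1 month by the interaction term of the limma fit.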

How the results depend on the processing

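No member called in the reported fits changed sign under an alternative run; Rgs9, not called there with age in wild types, was called higher with the mean of probes and lower without wild-type 1-month replicate 4. The medians of the 40 members moved by less than the largest SD of their array means in the groups compared, except with age in wild types, where slide 1 alone gave 0.07 against a main median of -0.02. That median lay on both sides of 0 across the alternatives, from -0.09 (slide 2 alone) to 0.07; it was 0.03 with the 50th percentile, 0.02 on the deposited matrix and 0.04 with the mean of probes. The counts of called members did move, as did the counts over all genes, and the cause was not tested. At 1 year 165 of all genes were called in the main fit, 287 after normexp with quantile normalization and 82 with 50th percentile scaling. With age in mutants these counts were 1271, 1416 and 638. For mutants against wild types at 1 year (3 called), normexp with quantile normalization gave 6 (Slc24a1, Kcnv2, Gucy2f, Rp1l1, Cdhr1 and Fscn2) and array row as a covariate gave 1 (Gucy2f); 50th percentile scaling, every probe on its own, only the 2 groups compared, slide 1, slide 2, leaving out the arrays against the sex label, and the RPE and melanin covariate each gave 0. Without 1 array it ran from 0 to 5, with 1 (Cdhr1) when mutant replicate 3 was left out and 5 when wild-type replicate 4 was. For the difference between effects (1 called), normexp gave 2 (Rp1l1 and Cdhr1), the filter on all 16 arrays 2 (Gnat1 and Cdhr1), and the deposited matrix, the 50th percentile, every probe, slide 1, slide 2, leaving out the arrays against the sex label, and the covariate 0. Without 1 array it ran from 0 (mutant 1-month replicate 1, wild-type 1-year replicate 3) to 4 (mutant 1-month or wild-type 1-year replicate 4), with 2 without wild-type 1-month replicate 4. With age in mutants (17 called), the 50th percentile gave 1 (Aipl1), every probe 11, 2 groups alone 8, slide 1 and slide 2 0 each, leaving out the arrays against the sex label 1, the covariate 11, and 1 array left out 10 to 26. With age in wild types (0 called), normexp gave 2 (Prom1 lower, Fscn2 higher), the deposited matrix 1 (Prom1), the mean of probes 1 (Rgs9, higher) and 1 array left out 0 to 1. At 1 month (0 called), 1 array left out gave 0 to 2. With replicate number as a block, the counts were 0 at 1 year, 0 for the difference, 12 with age in mutants, and 0 at 1 month and with age in wild types.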
